A study of Mus musculus with 4 samples.

Results

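The genes described here are the 4 adult haemoglobin genes of the mouse (Hba-a1 and Hba-a2 for α-globin, Hbb-bs and Hbb-bt for β-globin) and Alas2, which encodes the erythroid form of the first enzyme of haem synthesis. They are 5 of the 29897 genes listed, chosen as a set because red cells make them in bulk. The set was chosen by its globin counts in the CCl4 and control libraries and by the number of erythroid barcodes, so the difference between those groups is given as a description and without a test. The data were single-cell gene counts of dissociated mouse colon, from 2 libraries labelled control and 2 libraries labelled CCl4. CCl4 (carbon tetrachloride, a solvent toxic to the liver) was given to 6-week-old SPF mice over 6 weeks, and the labels describe the other group only as control. The colon was digested with enzymes and its cells were barcoded in droplets. The sources used here name no strain, sex or vehicle and give no number of animals per library, so the spread between libraries may be technical.

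Haemoglobin is built from α and β chains that each hold a haem group, and developing red cells devote most of their messenger RNA to these chains. Circulating reticulocytes still carry globin messenger RNA after the nucleus is lost, which is how blood in a tissue enters a droplet library. Red cells that break during dissociation release the same RNA into the suspension, where it can be caught with any cell.

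The 5 genes lie at 3 places in the GRCm38 genome, per the GENCODE M21 annotation. Hba-a1 (ENSMUSG00000069919.7) spans chr11:32283511-32284465 and Hba-a2 (ENSMUSG00000069917.7) spans chr11:32296489-32297298, both on the plus strand. Hbb-bs (ENSMUSG00000052305.6) spans chr7:103826534-103828096 and Hbb-bt (ENSMUSG00000073940.3) spans chr7:103812524-103813996, both on the minus strand. Alas2 (ENSMUSG00000025270.13) spans chrX:150547375-150570638 on the plus strand. The copies within each globin pair have nearly the same coding sequence. The stretches around their differing base are printed because they show how little separates the coding parts of the copies. The coding sequences of Hba-a1 and Hba-a2 are 429 bases long and differ at 1 base, C381T. Those of Hbb-bs and Hbb-bt are 444 bases long and also differ at 1 base, C417T. Positions count from the A of the start codon, the substitution reads from the first gene of the pair to the second, and the differing base is in capitals. The stretches were read from the GENCODE M21 transcripts.
Hba-a1: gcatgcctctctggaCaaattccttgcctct
Hba-a2: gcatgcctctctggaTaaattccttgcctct
Hbb-bs: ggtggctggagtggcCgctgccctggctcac
Hbb-bt: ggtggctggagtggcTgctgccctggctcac
The transcripts are 699 and 554 bases long for Hba-a1 and Hba-a2, and 628 and 703 for Hbb-bs and Hbb-bt. Transcript sequence outside the coding parts was not compared. The split of counts within each pair is thus treated as uncertain, and the sum of the 4 globins is the main measure below.

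Because the members are compared as a set, the 250 bases before their RefSeq start sites (build GRCm38.p6) were searched on both strands for 4 short motifs. The window of Hba-a1 is left out below because it repeats that of Hba-a2. The first was GATAA, the core site of the GATA family of factors. The second was CACCC, a site of Krüppel-like factors. The third was CCAAT, a box common before start sites. The last was ATATAA, a form of the TATA box. No 2 matches share a base in the 5 windows. In the sequences below, written 5′ to 3′ on the gene's strand, the capitals mark any of these motifs or its reverse complement.
Hba-a2, chr11:32296242-32296491, plus strand: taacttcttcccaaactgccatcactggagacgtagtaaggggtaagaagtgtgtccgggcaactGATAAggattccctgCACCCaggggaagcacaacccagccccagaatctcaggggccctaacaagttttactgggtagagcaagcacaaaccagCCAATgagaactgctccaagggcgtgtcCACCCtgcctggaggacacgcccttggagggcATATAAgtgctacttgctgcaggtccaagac
Hbb-bs, chr7:103827929-103828178, minus strand: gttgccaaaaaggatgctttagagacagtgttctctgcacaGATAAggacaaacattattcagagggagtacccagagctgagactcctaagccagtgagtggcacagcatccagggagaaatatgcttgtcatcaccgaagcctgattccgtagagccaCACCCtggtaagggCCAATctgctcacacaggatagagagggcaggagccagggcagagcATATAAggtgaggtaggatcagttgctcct
Hbb-bt, chr7:103813924-103814173, minus strand: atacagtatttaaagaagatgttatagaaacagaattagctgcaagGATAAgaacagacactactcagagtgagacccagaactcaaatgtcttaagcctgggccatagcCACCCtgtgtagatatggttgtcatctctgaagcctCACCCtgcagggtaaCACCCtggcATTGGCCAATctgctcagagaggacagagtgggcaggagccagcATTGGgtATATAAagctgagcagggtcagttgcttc
Alas2, chrX:150547167-150547416, plus strand: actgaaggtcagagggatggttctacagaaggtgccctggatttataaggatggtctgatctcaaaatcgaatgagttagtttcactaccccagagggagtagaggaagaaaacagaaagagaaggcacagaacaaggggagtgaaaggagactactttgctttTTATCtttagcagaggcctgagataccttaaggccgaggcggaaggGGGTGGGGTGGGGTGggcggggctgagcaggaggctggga
GATAA was found in all 5 windows and in 22.6% of the 32851 promoter windows of the same length. CACCC was found in all 5 and in 52.0% of all windows. CCAAT was found in the 4 globin windows and in 33.8% of all, and ATATAA in the same 4 and in 9.10% of all. All 4 motifs together were in the 4 globin windows and in 0.466% of all windows. ATATAA lay with its first base 28 to 31 bases before the start in the globin genes. In Alas2 the CACCC matches were on the reverse strand, at 30, 35 and 40 bases before the start. The RefSeq table's own windows are longer and run past the start. Those of Hba-a1 and Hba-a2 match at all of 297 bases once shifted by 3, while those of Hbb-bs and Hbb-bt differ at 131 of 299 bases (56.2% identity). A match of letters is a description of the sequence only.

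The 4 libraries held 10021 and 10038 barcodes for control and 13986 and 12464 for CCl4, with totals of 55834301 to 92383719 counts. Every deposited barcode had at least 1001 counts, and the median was 3703 to 4341. Mitochondrial shares had medians of 6.05% and 5.65% for control and of 10.7% and 9.08% for CCl4. No barcode had the same count profile in 2 libraries. The barcodes carry serial names, 13113 of which recur between libraries, so shared droplet sequences could not be checked. After filtering and removal of doublets, 36462 cells that were not erythroid fell into 13 named classes and 6 clusters left without a name. Classes were named from marker genes and a cluster without a name is called by its leading gene.

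Barcodes dominated by globin were present in every library and more frequent in the CCl4 libraries. A barcode was called erythroid when at least 10% of its counts came from the 4 globins. By that rule control library 1 held 25 erythroid barcodes, control library 2 held 27, CCl4 library 1 held 70 and CCl4 library 2 held 51. As shares of all deposited barcodes these were 0.249% (95% exact binomial interval 0.162 to 0.368), 0.269% (0.177 to 0.391), 0.501% (0.390 to 0.632) and 0.409% (0.305 to 0.538). Such intervals cover counting error only. Both CCl4 shares lay above both control shares, and the mean was 0.259% ± 0.0138 (SD, n = 2) in control and 0.455% ± 0.0646 (SD, n = 2) in CCl4, a ratio of 1.75. The lowest globin shares inside the limit were 33.6%, 21.9%, 10.2% and 13.4% in the same order, and the highest outside it were 3.58%, 9.71%, 8.76% and 9.39%. Between 5% and 10% lay 0, 1, 4 and 6 barcodes, and between 10% and 25% lay 0, 1, 12 and 3.

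The size of that difference depended on a filter that is usual for single cells. Most erythroid barcodes hold few genes, with a median of 99 and 130 for control against 233 and 186 for CCl4. The most genes in a single barcode were 533 and 1928 for control and 3933 and 1911 for CCl4. Whether barcodes with many genes held a second cell was not tested. A minimum of 200 genes removed 44 of 52 erythroid barcodes (84.6%) from the control but 54 of 121 (44.6%) from the CCl4 libraries. With at least 200 genes, 2, 6, 44 and 23 were left in the order above, and past the whole cell filter 2, 5, 38 and 21. A cluster named erythroid held 2, 0, 29 and 17 cells. The ratio of the mean shares of CCl4 over control was 1.75 over all deposited barcodes, 6.80 past the cell filter and 18.3 for the cluster, so the choice of barcodes moved it by over 1.5 times. The cluster also comes after removal of doublets, which took 0, 5, 5 and 1 of the erythroid barcodes past the filter, in control library 2 all 5. With a globin share of at least 50% and no filter on genes it was 1.44.

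**Figure D1:**
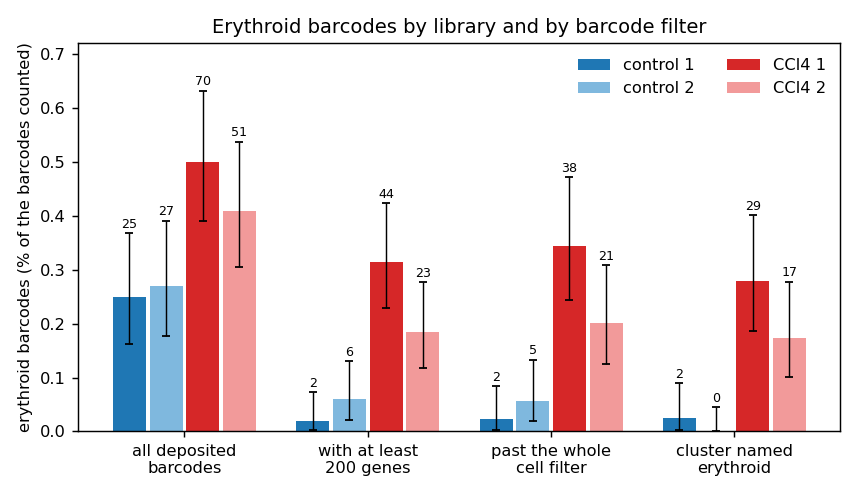
Erythroid barcodes as a percentage of the barcodes counted (y axis), by library and by which barcodes were counted (x axis). Bars are single libraries with the number of barcodes above them and lines are 95% exact binomial intervals. The control bars drop from 25 and 27 barcodes to 2 and 6 once 200 genes are required, while the CCl4 bars drop from 70 and 51 to 44 and 23.

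The erythroid barcodes of the groups also differed in what else they held. The median globin share of their counts was 87.7% and 83.9% for control, and 69.4% and 76.2% for CCl4. A share under 50% was seen in 3 of 25, 4 of 27, 20 of 70 and 15 of 51 barcodes. Their total counts were alike, with medians of 2219, 1920, 2449 and 1949, and the counts that were not globin had medians of 298, 379, 691 and 474. Their distance from the floor of the deposited files is small, since the lowest totals were 1017, 1040, 1016 and 1010 counts. Whether barcodes of red cells below that floor differed between groups was not tested.

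**Figure D2:**
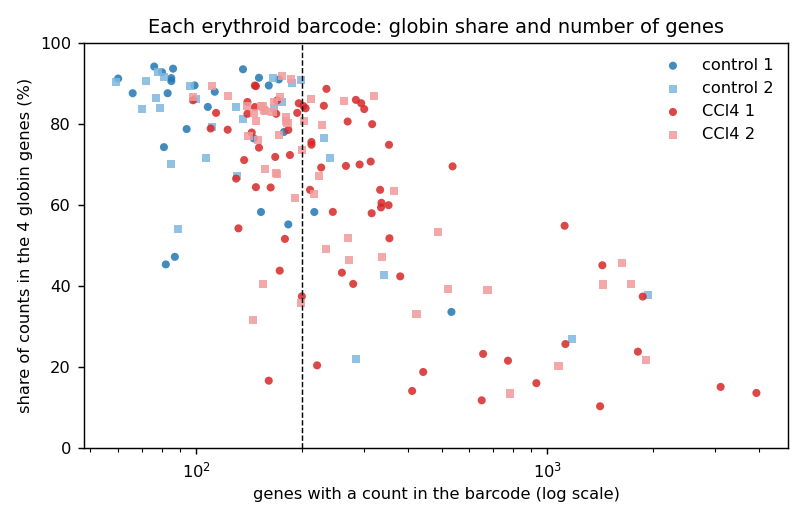
Each point is 1 of the 173 erythroid barcodes, with the number of genes it holds on a log x axis and its globin share of counts in percent on the y axis, coloured by library. The dashed line marks 200 genes, to the left of which lie 44 of the 52 control and 54 of the 121 CCl4 barcodes.

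Genes known from red cells led the other transcripts in these barcodes. The genes other than the members that stood far above all other cells, after 10 CPM was added to both levels, included Ube2l6 (an enzyme of ISG15 and ubiquitin transfer; 476 against 16.3 CPM, the counts scaled to a common library total), Bpgm (which makes 2,3-bisphosphoglycerate, the regulator of oxygen release; 677 against 34.2 CPM), Rec114, Apex2, Isg20, Fam220a, Gm10371 and Apol11b. Ube2l6 had a count in 91 of the 173 barcodes and Bpgm in 92. The list of 23 erythroid-restricted genes had 8 members with a count and 86 counts in all, of which Kel (the Kell antigen) had 14 and Slc4a1 (the band 3 anion exchanger) had 11. Gata1, Epor and the embryonic globins Hbb-y, Hbb-bh1 and Hba-x were at 0, and Ahsp is not listed in the tables used. Alas2 had a count in 21 of 25, 22 of 27, 59 of 70 and 45 of 51 barcodes. Of the haem synthesis list, Fech (ferrochelatase, which inserts iron into the ring) had the most counts, 23. The 12 neutrophil genes were all at 0 in the erythroid barcodes, and the 12 platelet genes had 7 counts in all.

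Nearly all globin counts sat in the erythroid barcodes. Over all barcodes the 4 globins made up 885 and 959 CPM for control and 1471 and 1275 CPM for CCl4, and the erythroid barcodes held 96.1%, 96.2%, 94.2% and 89.5% of those counts. The mean level was 922 ± 52.5 CPM in control and 1373 ± 138 CPM in CCl4 (SD, n = 2 each), a ratio of 1.49.

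Outside the erythroid barcodes the globins were low in every library and higher in both CCl4 libraries. The summed level in all other cells was 31.1 CPM in control library 1, 37.1 in control library 2, 67.7 in CCl4 library 1 and 100.5 in CCl4 library 2. Per cell this was 0.179, 0.225, 0.471 and 0.626 counts. The means were 34.1 ± 4.21 CPM in control and 84.1 ± 23.2 CPM in CCl4 (SD, n = 2 each), a ratio of 2.47, where the erythroid barcodes gave 1.75 and all barcodes 1.49. All 5 members had both CCl4 libraries above both control libraries, which was also the case for 29.3% of the 26546 genes with at least 10 counts in these cells. Nothing is read from that count, because the members were chosen with this contrast known.

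Gene by gene the other cells showed the following CPM, first for both control and then for both CCl4 libraries. Hba-a1 was at 12.96, 14.43, 26.1 and 39.2 and Hba-a2 at 7.88, 9.51, 17.6 and 27.2. For both α-globin copies the CCl4 libraries differed from each other by more than the nearest libraries of the groups did, although the groups did not overlap. Hbb-bs was at 8.53, 10.96, 20.1 and 26.8 and Hbb-bt at 1.74, 2.15, 3.90 and 7.28. Alas2 had 10, 12, 19 and 25 counts, or 0.214, 0.239, 0.264 and 0.411 CPM, so its libraries lay close together. Of those counts 0, 1, 0 and 12 were in the cluster led by Cntnap2, which held 10, 265, 114 and 550 cells. The highest Alas2 value thus rested in large part on that cluster. The ratios of the means were 2.38 for Hba-a1, 2.58 for Hba-a2, 2.41 for Hbb-bs, 2.88 for Hbb-bt and 1.49 for Alas2.

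A globin count was found in some cells of each of the 15 larger classes and clusters. Over all other cells the share with at least 1 globin count was 7.37% (exact binomial interval 6.81 to 7.96) and 7.99% (7.42 to 8.60) for control, and 23.2% (22.3 to 24.0) and 19.9% (19.1 to 20.7) for CCl4. Among the 15 classes and clusters with at least 50 cells in each library, it ran from 3.95% to 12.0% in control library 1, from 3.66% to 10.7% in control library 2, from 18.2% to 26.4% in CCl4 library 1 and from 15.6% to 25.04% in CCl4 library 2. In all 15 both CCl4 libraries lay above both control libraries. Of all 19 classes and clusters only enteroendocrine cells, with 27 to 51 cells a library, overlapped. Median depth differed far more between classes than the share did, from 2878 to 14125 counts in control library 1 and from 2467 to 12210 in CCl4 library 2. Across the 15 classes the Pearson correlation of median depth with the share was 0.03, 0.61, 0.54 and 0.37 in the 4 libraries, where the classes of a library share its preparation and its sequencing.

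Plasma cells and T cells, neither known to make globin, show the range. Plasma cells, with median depths of 12210 to 16119 counts, had a globin count in 8.30%, 10.4%, 26.4% and 22.2% of cells. T cells, with median depths of 2888 to 3231 counts, had one in 5.30%, 4.32%, 22.7% and 16.8%. Fibroblasts, the largest class, had one in 6.68%, 7.60%, 22.1% and 19.7%. Blood endothelial cells, which line the vessels that hold red cells, had one in 9.44%, 10.3%, 25.6% and 25.04%. Macrophages or monocytes, which can engulf red cells, had one in 5.95%, 6.47%, 18.2% and 15.6%, the last being the lowest of the 15 in CCl4 library 2. At these unequal depths no class of the 15 lay above the plasma cells of its library beyond the intervals, while T cells and glia in control library 2 and macrophages or monocytes in CCl4 library 1 lay below them.

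At equal depth the gap between the groups remained. With every cell thinned to 1000 counts, a globin count was left in 2.62% and 2.67% of cells for control, against 7.11% and 6.95% for CCl4. The mean difference was 4.39 percentage points, against 13.9 before thinning, and the libraries of a group lay closer together than the groups. Both CCl4 libraries lay above both control libraries in 14 of the 15 classes, the exception being the cluster led by Csf2rb (6.40%, 1.41%, 4.90% and 6.15%). At this depth the classes differed more. Plasma cells were at 1.48%, 0.965%, 2.03% and 3.17%, T cells at 2.43%, 1.94%, 10.96% and 7.30%, and fibroblasts at 2.33%, 2.72%, 7.49% and 6.96%. Blood endothelial cells were at 4.72%, 3.94%, 8.21% and 8.70%, with exact intervals above those of plasma cells in each library. They were not the highest class. The cluster led by Gata3 was above blood endothelial cells in each library, at 5.23%, 4.79%, 8.66% and 10.7%. The cluster led by Gm26917 was above them in all but control library 1, at 4.57%, 10.3% and 9.17%. The intervals of both clusters overlapped those of blood endothelial cells. T cells were above plasma cells beyond the intervals in CCl4 library 1 alone. Whether these differences come from RNA in the suspension or from the cells was not tested.

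**Figure D3:**
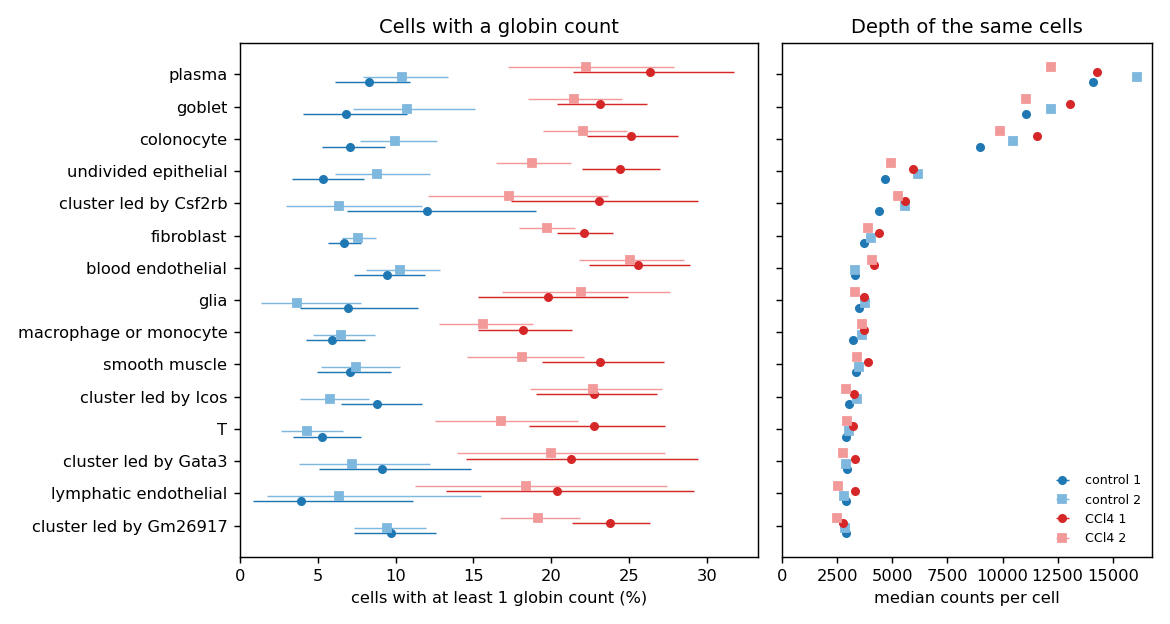
Left, the percentage of cells with at least 1 globin count (x axis) in each of the 15 classes or clusters (y axis, ordered by depth), 1 point per library with its 95% exact binomial interval. Right, the median counts per cell of the same cells. The CCl4 points lie between 15.6% and 26.4% and the control points between 3.66% and 12.0% at every depth.

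The level in CPM depended on single cells where the share did not. Other cells with at least 10 globin counts numbered 10, 8, 25 and 25 in the 4 libraries, and these 68 cells held 41.5%, 51.5%, 26.9% and 55.8% of the globin counts of the other cells. In macrophages or monocytes the summed level was 30.9, 247.1, 131.8 and 51.4 CPM, and a single cell of control library 2 held 587 of that library's 636 counts. Without the cell with the most globin counts in each library the levels of that class were 23.1, 19.1, 89.9 and 50.2 CPM, and the ratio of CCl4 over control went from 0.659 to 3.32. In glia it went from 13.2 to 4.03, where 1 cell of CCl4 library 2 held 362 of 429 counts. In blood endothelial cells it went from 2.76 to 1.89, where 1 cell of CCl4 library 2 held 1583 of 1987 counts. In goblet cells it went from 6.16 to 3.97, and in T cells from 1.71 to 4.84, where 1 cell of control library 1 held 93 of 120 counts. Without these cells all 15 classes had both CCl4 libraries above both control libraries, with ratios from 1.89 to 5.16 and a median of 3.29. With them it was 12 of 15.

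**Figure D4:**
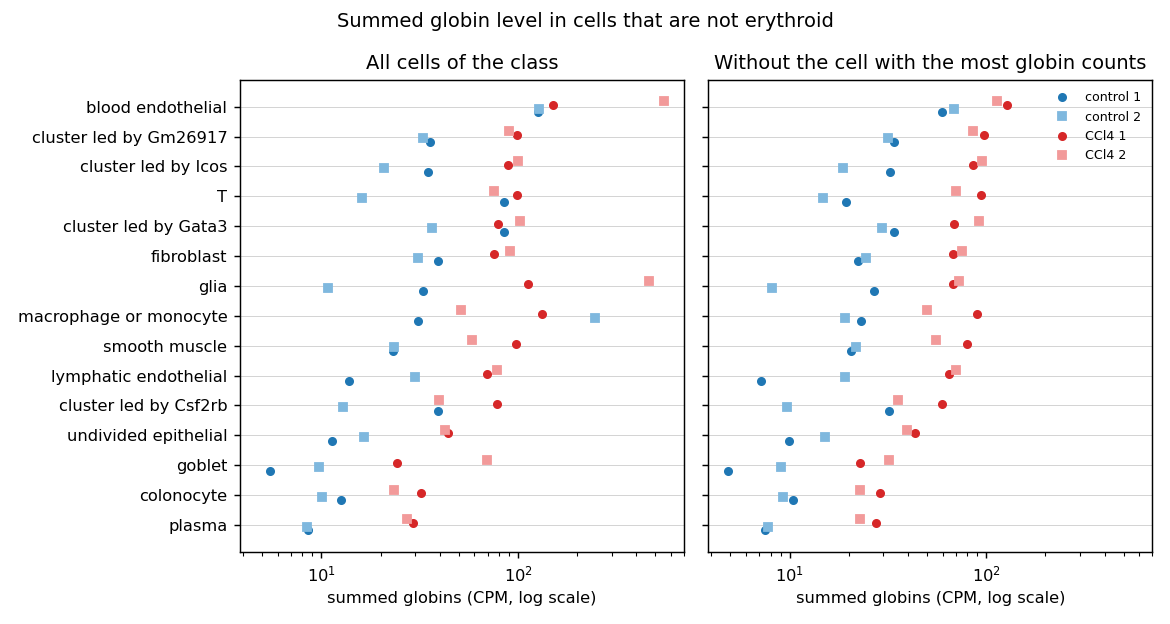
Summed globin level in CPM on a log x axis in the 15 classes or clusters with at least 50 cells in each library, 1 point per library. Left, all cells of the class; right, without the cell with the most globin counts in each class and library, where the CCl4 points of each class lie to the right of its control points.

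Among the 15 without those top cells, blood endothelial cells were highest in every library, at 59.4, 68.6, 128.2 and 113.3 CPM. Plasma cells were at 7.45, 7.80, 27.5 and 22.7 CPM, goblet cells at 4.88, 8.99, 22.8 and 32.2 CPM and colonocytes, the absorptive cells of the surface, at 10.3, 9.30, 28.9 and 22.9 CPM. Of the 15 classes and clusters these 3 were the lowest in both CCl4 libraries, where their values overlapped. In the control libraries undivided epithelial cells (9.88 and 15.1 CPM), lymphatic endothelial cells (7.15 and 19.1 CPM) and glia (26.8 and 8.12 CPM) also reached down to that range. Fibroblasts were at 22.3, 24.6, 67.7 and 75.3 CPM, smooth muscle cells at 20.6, 21.8, 80.1 and 55.3 CPM and T cells at 19.3, 14.9, 94.6 and 70.5 CPM, so these 3 overlapped in CCl4. CPM divides by the depth of the cell, so a like number of globin counts per cell gives a lower CPM in a deeper class. The top rank of blood endothelial cells depended on cells with more globin counts. Over cells with under 5 globin counts they were at 33.4, 29.7, 67.0 and 59.1 CPM. The cluster led by Gm26917 was above them in each library, at 35.6, 32.7, 94.3 and 79.8 CPM.

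From the class fits the log2 ratios of CCl4 over control leaned the same way. Hba-a1, Hba-a2 and Hbb-bs had enough counts for a fit in 10 of 11 classes and Hbb-bt in 5, and Alas2 in none. The ratio was above 0 in 9 of 10 classes for each of the first 3 and in 4 of 5 for Hbb-bt, the exception being macrophages or monocytes. The medians over classes were 1.29 for Hba-a1, 1.47 for Hba-a2, 1.66 for Hbb-bs and 1.29 for Hbb-bt. In fibroblasts the ratios were 1.28 (SE 0.15), 1.24 (SE 0.20), 1.12 (SE 0.22) and 1.52 (SE 0.44) in that order. In blood endothelial cells they were 1.14 (SE 0.34), 1.402 (SE 0.35), 1.77 (SE 0.33) and 2.73 (SE 0.55). Those endothelial values rested on CCl4 library 2, without which they were -0.06, 0.25, 0.80 and 1.04, and they were -0.04, 0.46, 0.78 and 0.87 with doublets kept. In macrophages or monocytes they were -0.35, -0.34, -0.95 and -0.77, and without control library 2 they turned to 1.62, 2.20, 1.24 and 0.96. With doublets kept they were 1.10, 1.05, 0.28 and 0.69. In T cells Hba-a2 was at 0.16, and at -0.69 without control library 2.

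Cells rich in globin were most frequent in blood endothelial cells and in the cluster led by Rgs5. That cluster scored 3.16 (log2) for blood endothelial markers and 2.985 for pericyte markers, its best sets. Its median depth was 10532 counts, against 3663 and 3714 in the clusters named blood endothelial. A fixed limit of 10 globin counts is easier to reach in deeper cells. Of blood endothelial cells, 23 of 2724 (0.844%, exact interval 0.536 to 1.26) had at least 10 globin counts, with 4, 4, 8 and 7 in the 4 libraries. The same held for 7 of the 392 cells (1.79%, 0.721 to 3.64) of the Rgs5-led cluster, all 7 in the CCl4 libraries, which hold 169 and 161 of its cells against 20 and 42 in control. Fibroblasts had 9 of 8601 (0.105%). A β-globin count was present in 63 of the 68 cells and an Alas2 count in 9. In the 23 endothelial cells the α share of globin counts ran from 45.3% to 100% with a median of 68.4%.

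The α share of globin counts was higher in other cells than in erythroid barcodes of the same library, by a margin that depended on the cells counted. The α-globin copies made up 60.9%, 61.0%, 58.6% and 61.7% of globin counts in the erythroid barcodes. In other cells they made up 67.0%, 64.6%, 64.5% and 66.1%, and in those with 1 to 4 globin counts 64.8%, 64.7%, 64.2% and 66.0%. The exact intervals of all other cells and of erythroid barcodes did not overlap in any library, with 64.5 to 69.4 against 60.4 to 61.3 in control library 1. Without blood endothelial cells and the Rgs5-led cluster the shares in other cells were 64.0%, 61.9%, 63.3% and 66.2%, and the intervals of both control libraries then overlapped. The 1 to 4 count cells of control library 2 overlapped too. Single erythroid barcodes ranged from 44.6% to 81.4%, far wider than these pooled intervals. In blood endothelial cells the α share was 75.3%, 74.7%, 63.5% and 64.0%, so the control libraries lay above the CCl4 libraries. Over the blood endothelial cells with 1 to 4 counts it was 77.8%, 67.0%, 65.8% and 69.0%, where the groups overlapped. Summed over the libraries, the α share of all blood endothelial cells was 66.4%. Lymphatic endothelial cells (82.4%), the clusters led by Gata3 (77.6%) and Rgs5 (74.2%), plasma cells (69.8%) and undivided epithelial cells (68.6%) were above that. All other classes and clusters were below it. Alas2 had 2.42, 2.33, 2.91 and 3.47 counts per 1000 globin counts in the erythroid barcodes and 6.89, 6.46, 3.90 and 4.09 in other cells. The values in other cells rest on 10, 12, 19 and 25 Alas2 counts, and 12 of the last 25 lay in the Cntnap2-led cluster.

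Genes of other cell types were also counted in cells that should lack them, and their movement gives a scale for the globins. Goblet genes (Muc2, Clca1, Fcgbp, Zg16, Tff3 and Spink4) had 0.413, 0.410, 1.21 and 1.19 counts per cell outside the epithelium and the Gm26917-led cluster, a ratio of 2.92, while goblet cells were 3.12% of control and 7.82% of CCl4 cells. Colonocyte genes (Slc26a3, Aqp8, Car4 and Guca2a) had a ratio of 1.99, while colonocytes were 7.76% of control and 9.09% of CCl4 cells. Plasma genes (Igkc, Jchain and Igha) had 7.34, 9.55, 3.14 and 3.86 counts per cell, a ratio of 0.414, while plasma cells went from 6.49% to 2.71%. Smooth muscle genes had a ratio of 1.23, with no overlap of the groups, while smooth muscle cells went from 5.74% to 4.46%. Fibroblast genes had a ratio of 0.929, with overlap, while fibroblasts went from 27.9% to 20.1%. The stray counts thus did not always move with the share of their own cells. The globins, with a ratio of 2.71 per cell, lay between the colonocyte and the goblet genes. Red cells in the vessels of the tissue and RNA free in the suspension cannot be told apart by these counts, and the part of either was not tested.

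**Figure D5:**
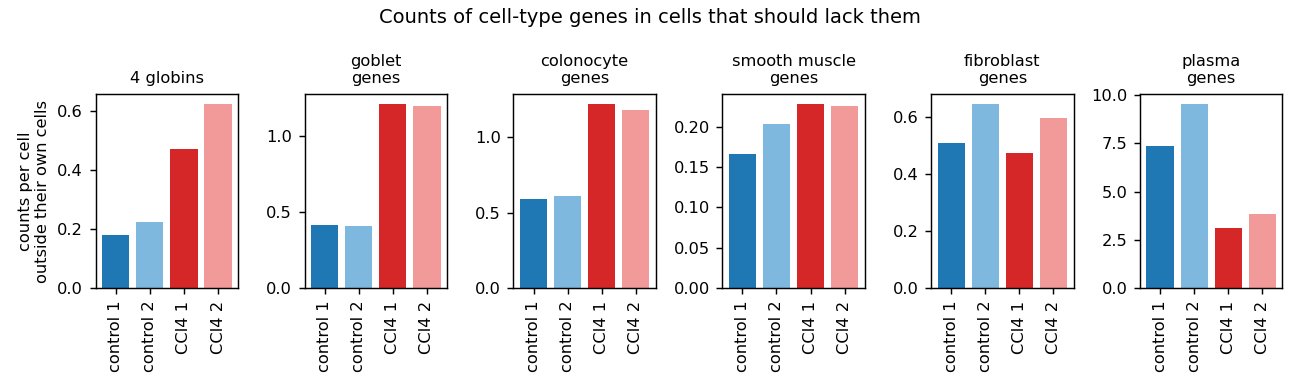
Counts per cell (y axis) of the 4 globins in cells that are not erythroid, and of 5 groups of cell-type genes in classes that should lack them, with 1 bar per library. The globin bars stand at 0.179 and 0.225 in control and 0.471 and 0.626 in CCl4, the goblet bars at 0.413, 0.410, 1.21 and 1.19, and the plasma bars fall from 7.34 and 9.55 to 3.14 and 3.86.

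The gene lists of other blood cells did not move as 1 group with the globins. Over all barcodes, leaving out globin counts, the 12 neutrophil genes summed to 14.3, 19.6, 30.3 and 21.2 CPM, so both CCl4 libraries lay above both control libraries. The 12 platelet genes summed to 207.4, 192.4, 153.0 and 163.6 CPM and the 6 blood monocyte genes to 1204, 1165, 680.8 and 704.0 CPM, with the CCl4 libraries below. Pf4 of the platelet list is also made by macrophages, and Plac8 and Ly6c2 of the monocyte list by lymphocytes and plasma cells. Of the tested classes, colonocytes had the most Plac8, at 1815, 1653, 1363 and 1280 CPM. Macrophages or monocytes had 43.7, 39.6, 39.6 and 44.7 CPM of it. Ly6c2 was highest in plasma cells, at 3146, 3282, 2109 and 2154 CPM. Sums of these lists thus take in counts from other cells and are not a measure of blood cells. Of the neutrophil list, Mmp9 had 136, 201, 412 and 278 counts in macrophages or monocytes. Lcn2 was among the leading genes of the lymphatic endothelial cluster, and no cluster was named neutrophil.

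The other genes of the red cell, haem and blood lists were tested in 11 classes with edgeR's quasi-likelihood test, with adjustment over all genes of a class. Of 576 pairs of a class and a listed gene, 12 rose (2.08%) and 8 fell (1.39%), where 0.821% of all 121790 pairs rose and 0.470% fell. The median log2 ratio was 0.04 over the listed pairs and -0.0003 over all. None of the 136 pairs of the haem synthesis list, which holds the enzymes from Alas1 to Fech, passed the threshold by edgeR, where 11 had an unadjusted p under 0.05 and DESeq2 called 0. Of the 14 pairs of the erythroid-restricted list none passed, with 0 at an unadjusted p under 0.05 and 0 called by DESeq2. The platelet list had none among 25 pairs, with 5 at an unadjusted p under 0.05 and 0 by DESeq2. Late red cell genes that other cells also use had 8 rises and 1 fall among 130 pairs, haem and iron handling 3 rises and 3 falls among 233, blood monocyte 4 falls among 32 and neutrophil 1 rise among 6. Lymphatic endothelial cells (0.149% of genes rose and 0.0186% fell) and blood endothelial cells (0.325% and 0.15%) had no listed gene past the threshold by edgeR, where 5 and 6 listed genes had an unadjusted p under 0.05 and DESeq2 called 0 and 1. Genes fell without a listed gene among them in goblet cells (0.308%), smooth muscle cells (0.376%) and fibroblasts (0.618%), and rose without one in undivided epithelial cells (0.955%).

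The late red cell genes that rose were 2 carbonic anhydrases, enzymes that hydrate CO2 and that colon epithelium also makes, and the transferrin receptor. Car1 rose in fibroblasts from 25.5 and 27.3 to 47.3 and 43.8 CPM (log2 ratio 0.78, SE 0.12, edgeR adjusted p = 0.001643), where 1.39% of all genes tested rose. It also rose in glia (1.54, adjusted p = 0.01726; 0.446% of genes rose), goblet cells (0.94, adjusted p = 0.02703; 0.632% rose) and macrophages or monocytes (1.23, adjusted p = 0.01597; 0.993% rose). In undivided epithelial cells Car1 fell from 181.6 and 363.0 to 146.1 and 132.5 CPM (log2 ratio -0.99, SE 0.20, edgeR adjusted p = 0.02177), where 1.01% of genes fell. In colonocytes it was at 2932, 3483, 3368 and 3403 CPM, by far the highest level of any class, with a log2 ratio of 0.08 (edgeR adjusted p = 0.749). Car1 is a marker of the colonocyte list, and the colonocyte genes counted outside the epithelium were 1.99 times as many in CCl4 as in control. The part of that in these calls was not tested. The fibroblast call was lost with doublets kept (0.62). The other calls were lost without single libraries: glia without CCl4 library 1 (1.33) or control library 2 (1.24), goblet without CCl4 library 2 (0.89) or either control library (1.003 and 0.87), macrophages without CCl4 library 2 (0.67) and undivided epithelial cells without control library 2 (-0.40).

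Car2 rose in fibroblasts from 10.1 and 9.45 to 26.3 and 41.6 CPM (log2 ratio 1.77, SE 0.19, edgeR adjusted p = 7.452e-05), a call kept without each library. It also rose in plasma cells (1.13, adjusted p = 0.03607; 1.23% of genes rose) and T cells (0.91, adjusted p = 0.009073; 0.458% rose). Those calls were lost without control library 1 (1.04) or CCl4 library 1 (1.04) in plasma cells, and without CCl4 library 2 (0.72) or control library 2 (0.66) in T cells. In colonocytes Car2 stood at 947 and 925 CPM in control and 1070 and 1161 CPM in CCl4 (log2 ratio 0.25, edgeR adjusted p = 0.1433). In undivided epithelial cells it was at 676 and 704 CPM in control and 799 and 839 CPM in CCl4 (log2 ratio 0.23, edgeR adjusted p = 0.1537). Its log2 ratio was above 0 in every class tested. The part of epithelial counts found outside the epithelium in the Car2 calls was not tested. Tfrc, the receptor that takes up iron-loaded transferrin, rose in colonocytes from 169.3 and 151.5 to 241.2 and 235.2 CPM (log2 ratio 0.57, SE 0.09, edgeR adjusted p = 0.002985), where 0.538% of genes rose. It was not called without CCl4 library 1 (0.52) or CCl4 library 2 (0.62). Of the 175 genes called in colonocytes by edgeR, 0 were left without either of these libraries, where 732 and 613 had an unadjusted p under 0.05. With no filter on low counts 1 gene was called, and DESeq2 on all 4 libraries called 121.

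Among genes that handle iron and haem, the macrophages or monocytes had calls in both directions. Slc40a1 (ferroportin, the exporter of iron) rose from 15.2 and 12.8 to 24.7 and 38.8 CPM (log2 ratio 1.18, SE 0.29, edgeR adjusted p = 0.04562). Cd163, the receptor for haemoglobin bound to haptoglobin, fell from 196.5 and 216.0 to 128.2 and 146.2 CPM (log2 ratio -0.58, SE 0.12, edgeR adjusted p = 0.01721), where 0.346% of genes fell. The Slc40a1 call was lost without CCl4 library 2 (0.84) or control library 2 (1.03) and the Cd163 call without CCl4 library 1 (-0.50). In smooth muscle cells Ftl1 (the ferritin light chain, which stores iron) rose from 851.8 and 788.6 to 1103 and 1128 CPM (log2 ratio 0.44, SE 0.07, edgeR adjusted p = 0.002781), where 1.30% of genes rose, and Steap3 (a reductase of endosomal iron) went from 2 and 2 to 18 and 43 counts (3.803, SE 0.73, adjusted p = 0.007863), a call lost without CCl4 library 2 (2.88) or control library 1 (3.78). Cp (ceruloplasmin, which oxidises iron) fell in glia (-0.96, adjusted p = 0.01013; 0.185% of genes fell) and Lrp1, an endocytic receptor that also clears haem bound to haemopexin, fell in undivided epithelial cells (-0.60, adjusted p = 0.02459). The Cp call was lost without CCl4 library 1 (-1.01), CCl4 library 2 (-0.90) or control library 1 (-0.81), and the Lrp1 call without CCl4 library 1 (-0.57) or 2 (-0.64).

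Of the blood cell lists, Mmp9, a matrix protease stored by neutrophils, rose in macrophages or monocytes from 56.0 and 78.1 to 149.6 and 116.1 CPM (log2 ratio 1.002, SE 0.16, edgeR adjusted p = 0.002316). Plac8 fell in plasma cells from 153.1 and 163.5 to 75.6 and 75.3 CPM (-1.18, SE 0.11, edgeR adjusted p = 0.001071; 0.490% of genes fell). It also fell in T cells (-0.67, adjusted p = 0.01281; 0.435% fell) and colonocytes (-0.39, adjusted p = 0.03339; 0.788% fell). Ly6c2 fell in plasma cells from 3146 and 3282 to 2109 and 2154 CPM (-0.71, SE 0.09, edgeR adjusted p = 0.004252). The Ly6c2 call was lost without CCl4 library 1 (-0.72). The Plac8 call was lost without CCl4 library 1 (-0.64), CCl4 library 2 (-0.71) or control library 1 (-0.54) in T cells, and without CCl4 library 1 (-0.47), CCl4 library 2 (-0.32) or control library 1 (-0.29) in colonocytes.

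The genes most like the summed globins were in none of the red cell, haem or blood lists. Over 76 sums of a class and a library, the highest correlations in log2(CPM + 1) were those of Ttc37 (r = 0.64), Dhx33 (r = 0.62), Rps6kb1 (r = 0.61), Pdzd8 (r = 0.60) and Ercc5 (r = 0.59), out of 12943 genes. Sums of a library share its depth and preparation, and low counts add noise to each. Hba-a1 had r = 0.97, Hbb-bs 0.94 and Hba-a2 0.92, which is given by their being the main parts of the sum.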

How the data were processed

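Droplet single-cell libraries of mouse colon (2 control, 2 CCl4) were analysed from the deposited counts per gene and barcode. Per the file headers the matrices were written by PISA, and per the submitters' processing notes the build was GRCm38. An aligner was not given in the sources used here. Every deposited barcode has over 1000 counts, so a floor was applied before deposit. The members and lists were chosen with earlier results of these data known.

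Erythroid barcodes were counted before any filter on genes. For classes, barcodes under 200 genes or over 25% mitochondrial counts were dropped. The 6% of each library with the highest Scrublet scores were removed as doublets. The rest was clustered with Scanpy 1.11.5 (2000 variable genes, 30 principal components, 15 neighbours, Leiden resolution 1.0). A cluster was named where at least 3 markers of a type were raised and its score led by 0.5 (log2). The rule for undivided epithelial cells was changed after clusters had been seen, and no deposited cell annotation was used. Counts were summed per class and library and tested, treatment only, with edgeR 4.0.16 (quasi-likelihood, R 4.3.3) in the 11 named classes that hold at least 50 cells of each library, with Benjamini-Hochberg adjustment over all genes of a class at 0.05, two-sided. The labels do not say that libraries came from separate animals, so p-values measure the spread between libraries. The scripts were tested on simulated data. Alternatives were DESeq2 1.42.0, no filter on low counts, stricter cells (at least 500 genes, at most 10% mitochondrial), doublets kept, a replicate block and leaving out each library. Genes named are the 5 members, up to 3 called genes of each list and class with the largest change, the 5 genes most like the globins (mean of at least 5 CPM) and the 10 leading genes of erythroid barcodes, some of which are not reported here. Lists cover erythroid-restricted, late red cell, haem synthesis, haem and iron handling, platelet, neutrophil and blood monocyte genes. Intervals are exact (Clopper-Pearson, 95%), and a count of 0 was bounded by 3 counts. Both cover counting error only.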

Additional observations from a re-analysis of the deposited data

Results flagged for a closer look

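Car1 in undivided epithelial cells had a log2 ratio of CCl4 over control of -0.99, the opposite sign to its ratios of 0.78 in fibroblasts, 1.54 in glia, 0.94 in goblet cells and 1.23 in macrophages or monocytes. It stands out because all libraries of these classes moved in opposite directions under the same contrast, and the difference between classes was not tested. Control library 2 was at 363.0 CPM in undivided epithelial cells where control library 1 was at 181.6 CPM, and without control library 2 the ratio was -0.40 and no longer called by edgeR.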

How the results depend on the processing

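Over all classes 1573 pairs of a class and a gene were called, with 1311 by DESeq2, 1805 with doublets kept, 2828 with no filter on low counts, 929 with stricter cells, and 1184 to 2695 without 1 library. The 20 calls among the lists became 33 with no filter, 13 with stricter cells and 14 to 32 without 1 library. With the replicate block, 2981 pairs and 37 listed pairs were called. Libraries of the same number share only a number: the correlation of their deviations had a median of 0.0354 over 11 classes, and 2 pairs cannot show a pairing. By DESeq2 the calls of Car1 and Cp in glia, Car1 in goblet and undivided epithelial cells and Slc40a1 in macrophages or monocytes were lost. The log2 ratio of globin in other cells was 1.30, and 0.99 to 1.56 without 1 library. It was 2.92 when only barcodes with at least 50% globin were left out and 4.23 when none were. Erythroid barcodes then count as other cells, and the cells used held 2, 0, 33 and 20 of them. Before the cell filter and doublet removal there were 25, 27, 70 and 51. Over all deposited barcodes the log2 ratio of globin was 0.57. The log2 ratio of erythroid barcodes was 0.81, and 0.66 to 0.95 without 1 library. It was 0.65 at a limit of 25%, 0.53 at 50%, 2.65 with at least 200 genes, 2.77 past the cell filter and 4.20 for the cluster. The difference in the share of cells with a globin count was 4.39 points at 1000 counts per cell, 6.86 at 2000, 0.65 for at least 2 globin counts and 13.9 before thinning, with 4.31 to 4.47 without 1 library. The alternatives with at least 200 genes, before thinning and without 1 library for the share were chosen after seeing the data. None of these totals and ratios changed direction. For the members within a class, 17 of 310 log2 ratios under an alternative had the other sign, in T cells, blood endothelial cells and macrophages or monocytes. Apart from the effects of construction named, the cause was not tested. With 2 libraries a group, an exact permutation test of a single value cannot reach 0.05.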
